A study of Mus musculus with 12 samples.

Results

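The miR-379/miR-410 cluster is a run of microRNA (miRNA) hairpins in the imprinted Dlk1-Dio3 region of mouse chromosome 12. Probes of the nCounter panel were taken as members by miRNA name alone, which gave 41 members among the 566 mouse miRNA probes. They were followed in isolated optic nerves of male C57Bl/6 mice, with 3 samples in each of 4 groups. OGD+CX-4945 nerves had oxygen-glucose deprivation (OGD, a model of ischaemia in which oxygen and glucose are withdrawn) together with CX-4945, an inhibitor of casein kinase 2. OGD+MS-275 nerves had OGD together with MS-275, an inhibitor of class I histone deacetylases. OGD nerves were deprived without a drug, and Control nerves were not deprived. Every drug-treated nerve was also deprived, so the effect of a drug on undeprived nerve was not measured. The labels give no age, dose, duration or number of animals and nerves behind a sample. The p-values below therefore measure only the spread between these samples, which may be technical.

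Each sample was 1 lane of the panel, in which fluorescent barcodes bound to a target are counted without amplification. The total miRNA count of a lane was between 254692 and 542399, and the members together took 1.59% to 2.60% of it. Normalised counts below are raw counts scaled by lane totals with TMM factors. A member counted as above background in a lane when its raw count exceeded the mean plus 2 SD of the 8 negative controls of that lane, a limit of 32.0 to 60.6 counts. Optic nerve holds glia, axons and vessels, and in such bulk samples fewer cells of a type and less miRNA per cell cannot be told apart.

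In placental mammals the cluster is expressed from the maternal chromosome only, and its hairpins are cut out of long noncoding transcripts that run through the region, among them Mirg. The family is best known from neurons. In rat hippocampal neurons the transcription factor Mef2 drives the cluster after neuronal activity, and its members miR-134, miR-329 and miR-381 take part in the growth of dendrites. A miRNA pairs with target mRNAs mainly through its seed, bases 2 to 8 from the 5′ end. Precursors of the miR-376 group are also known as substrates of adenosine-to-inosine editing in brain, which can alter the seed.

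On assembly GRCm38.p6 the 41 probes belonged to 36 hairpins, all on the plus strand of chr12:109709060-109743795, a stretch of 34.7 kb from Mir379 to Mir410. The RefSeq tables held the mature sequence of 38 members, and miR-376c, miR-487b and miR-485 are given by name only. For panel names without a strand, the strand was taken from general knowledge of the miRNA's naming. The members that the comparisons turn on are shown first, 5′ to 3′, with the seed in capitals.

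miR-376a: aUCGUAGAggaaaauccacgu
miR-376b: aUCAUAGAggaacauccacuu
miR-154: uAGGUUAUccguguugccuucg
miR-377: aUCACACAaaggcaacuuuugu
miR-495: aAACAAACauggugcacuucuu
miR-410: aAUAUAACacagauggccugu
miR-369-3p: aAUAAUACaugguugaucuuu
miR-382: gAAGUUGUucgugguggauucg

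The 38 sequences had 38 different seeds, so no pair of these 38 members shared the full seed. miR-376c, miR-487b and miR-485 could not be compared. Among the 703 pairs of the 38 sequences, the most alike were miR-300 with miR-381, identical at 19 of 22 bases, and miR-376a with miR-376b, identical at 18 of 21. The next was miR-495 with miR-543, identical at 18 of 22. They are shown because close relatives could share signal on a hybridisation panel.

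miR-300: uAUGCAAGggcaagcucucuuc
miR-381: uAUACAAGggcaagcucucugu
miR-543: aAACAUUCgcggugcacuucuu

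Counted from the 5′ end, miR-376b differs from miR-376a by G4A, A13C and G20U, and miR-381 differs from miR-300 by G4A, U21G and C22U. In both pairs 1 of the differences lies in the seed. miR-543 differs from miR-495 by A6U, A7U, A9G and U10C, so the first pair of changes lies in the seed. How far the probes separate these relatives was not tested.

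Of the 41 members, 22 exceeded the background limit in at least 3 of the 12 lanes and were tested, or 53.7% against 38.3% of all mouse miRNA probes. Of these, 14 exceeded it in every lane. 18 members never exceeded the limit, and miR-380-3p did so in 1 Control lane only. miR-379, for which the cluster is named, was among those never above it, with 5 to 32 raw counts per lane. Untested members were most frequent near the Mir379 end. Up to 6.6 kb from the start of Mir379, only miR-411, miR-323-3p and miR-329 were tested. From miR-543 to miR-539, at 8.2 to 19.1 kb, all probes but the miR-654 strands were tested. miR-380-3p reached at most 41 raw counts, and the other 18 untested members reached between 8 and 33. Where probes for both strands of a hairpin were present, the strands could differ: miR-323-3p and miR-409-5p were tested, whereas miR-323-5p and miR-409-3p never exceeded the limit.

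**Figure D1:**
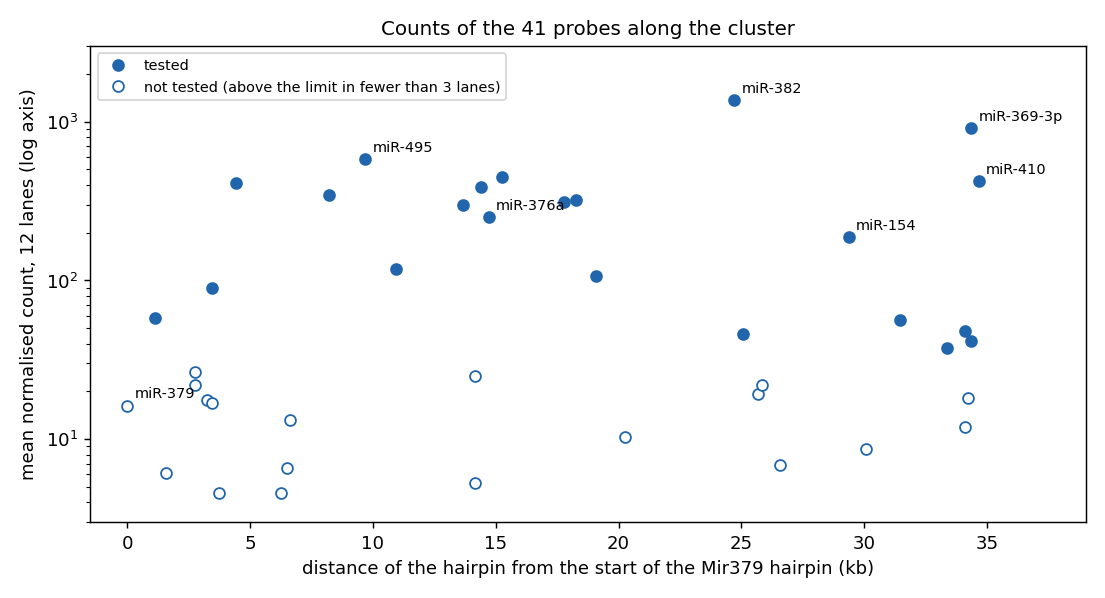
Mean normalised count over the 12 lanes (log axis) of each of the 41 probes against the distance of its hairpin from the start of the Mir379 hairpin. Filled points are the 22 tested members and open points the 19 others. Few probes up to 6.6 kb were tested, most of those from 8.2 to 19.1 kb were, and miR-382 has the highest mean count.

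The most abundant member by count was miR-382, with a mean of 1362 normalised counts over the 12 lanes. It was followed by miR-369-3p with 913, miR-495 with 582, miR-300 with 449 and miR-410 with 424. Counts of different probes also depend on how well each probe works, so this is an order of signals and not of molecules. miR-382 and miR-369-3p together made 29.8% to 34.1% of the normalised count of all 41 members in each lane. At the other end, miR-541 (37.3), miR-369-5p (41.8), miR-134 (46.2), miR-409-5p (48.1), miR-377 (56.5) and miR-411 (57.8) stood near the background. miR-134, the member with the best known neuronal role, exceeded the limit in 8 of 12 lanes.

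Detection of the members followed that of the whole panel only in part. The number of members above the limit was 18, 22 and 19 in the OGD+CX-4945 lanes, 21, 22 and 20 in the OGD+MS-275 lanes, 20, 14 and 16 in the OGD lanes and 20, 19 and 21 in the Control lanes. Over all mouse miRNA probes it was 175, 204 and 211 in the OGD+CX-4945 lanes, 211, 224 and 192 in the OGD+MS-275 lanes, 191, 154 and 192 in the OGD lanes and 198, 198 and 212 in the Control lanes. OGD replicate 2 had the fewest members and the fewest probes above the limit and the smallest total count. OGD replicates 1 and 3, with 191 and 192 probes above the limit, had 20 and 16 members above it. On the normalised scale the mean background limit was 60.8 in OGD lanes and 40.2 in Control lanes. The 8 members that were not above the limit in every lane (miR-134, miR-323-3p, miR-369-5p, miR-377, miR-409-5p, miR-411, miR-541 and miR-667) were all below it in OGD replicate 2.

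OGD+CX-4945 was compared with OGD to ask what the casein kinase 2 inhibitor adds to deprivation. No member passed the threshold of an adjusted p of 0.05. The members nevertheless lay mostly to one side: 20 of 22 had a higher fitted mean in OGD+CX-4945 nerves, with a median log2 fold change of 0.28, against 0.03 over all 217 tested probes, of which 54.4% were higher. The members' values are not independent of each other, as the lane values below show. At an unadjusted p under 0.05, 3 members were higher (miR-410, miR-376a and miR-376b) and 0 lower, where the background over all probes was 5.07% higher and 2.3% lower. The threshold itself was passed by 0.0% of all probes.

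miR-410, at the far end of the cluster, had 392, 561 and 418 normalised counts in the OGD+CX-4945 lanes, against 359, 285 and 385 in the OGD lanes. The groups did not overlap, although OGD+CX-4945 replicate 1 and OGD replicate 3 lay close together (log2 fold change 0.41, SE 0.18, adjusted p = 0.628 by edgeR's quasi-likelihood test with Benjamini-Hochberg adjustment). miR-495 had 503, 899.9 and 456 counts in the OGD+CX-4945 lanes, against 494, 416 and 448 in the OGD lanes. Replicate 2 stood far above the other OGD+CX-4945 lanes, which lay close to the OGD lanes (log2 fold change 0.45, SE 0.23). miR-369-3p, known from human cells to act on the mRNA of tumour necrosis factor, was the only other member whose groups did not overlap. It had 862, 1019.5 and 957 counts in the OGD+CX-4945 lanes, against 825, 718 and 837 in the OGD lanes (log2 fold change 0.25, SE 0.15). Groups without overlap in this direction were found for 4.61% of all probes.

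The miR-376 members were higher in the mean as well. miR-376b had 317, 581 and 383 normalised counts in the OGD+CX-4945 lanes, against 292, 283 and 354 in the OGD lanes (log2 fold change 0.46, SE 0.22), and the groups overlapped. The most abundant member differed by less than its spread between lanes: miR-382 had 1418 ± 387 counts in OGD+CX-4945 and 1322 ± 151 in OGD (SD, n = 3 each), with a 95% interval of the log2 fold change of -0.35 to 0.55. Without OGD+CX-4945 replicate 2, 16 of 22 members were higher, with a median log2 fold change of 0.09 against 0.01 over all tested probes. No member then had an unadjusted p under 0.05. The share of all probes under that p in this refit is not given here, so this has no background beside it.

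**Figure D2:**
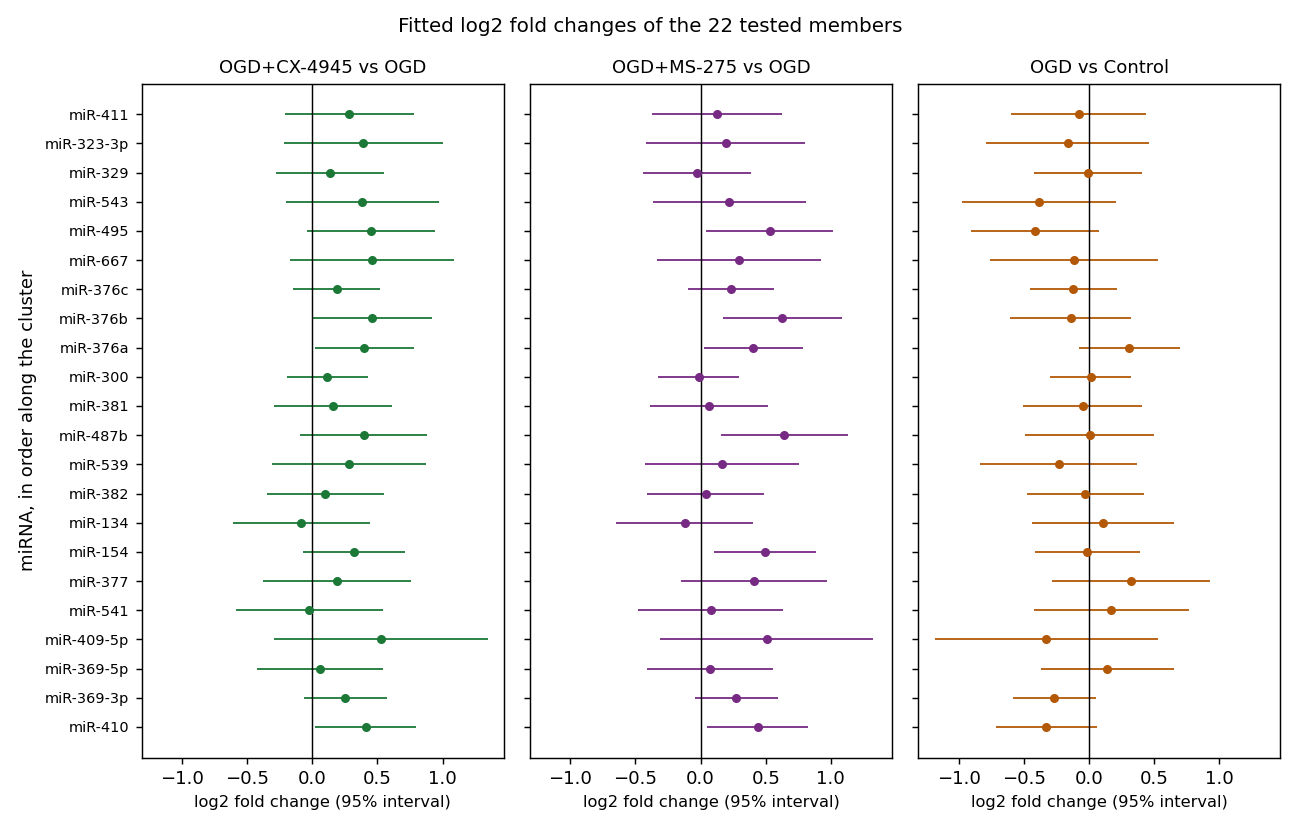
Fitted log2 fold changes of the 22 tested members (points) with 95% intervals (bars), ordered along the cluster, for OGD+CX-4945 vs OGD, OGD+MS-275 vs OGD and OGD vs Control. Most points of both drug comparisons lie above 0, with medians of 0.28 and 0.23, whereas 15 of 22 lie below 0 for OGD vs Control, and no member passed the threshold.

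OGD+MS-275 was compared with OGD in the same way for the deacetylase inhibitor. Again no member passed the threshold, which 0.461% of all probes did. 19 of 22 members were higher in OGD+MS-275 nerves, with a median log2 fold change of 0.23 against 0.03 over all tested probes, of which 55.8% were higher. At an unadjusted p under 0.05, 6 members were higher (miR-376b, miR-487b, miR-154, miR-410, miR-495 and miR-376a) and 0 lower, against a background of 11.1% higher and 9.68% lower. In 7 members, these 6 and miR-369-3p, every OGD+MS-275 lane lay above every OGD lane, as did 13.4% of all probes. Both drug comparisons share the OGD lanes, so their likeness is not independent.

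miR-376b had 499.6, 473 and 467 normalised counts in the OGD+MS-275 lanes, against 292, 283 and 354 in the OGD lanes. The OGD+MS-275 lanes stood close together and well above the others (log2 fold change 0.63, SE 0.22, adjusted p = 0.187, edgeR's quasi-likelihood test). miR-487b had 529.5, 320.3 and 393 counts in the OGD+MS-275 lanes, against 312, 236 and 246 in the OGD lanes. Its groups were narrowly separated, with OGD+MS-275 replicate 1 far above the rest (log2 fold change 0.64, SE 0.23, adjusted p = 0.187, edgeR's quasi-likelihood test). miR-154 had 216, 218 and 246 counts in the OGD+MS-275 lanes, against 138, 166 and 179 in the OGD lanes. The groups did not overlap (log2 fold change 0.49, SE 0.18, adjusted p = 0.196, edgeR's quasi-likelihood test).

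miR-495 had 704, 549 and 709.5 normalised counts in the OGD+MS-275 lanes, all above the OGD lanes (log2 fold change 0.53, SE 0.23). miR-410 had 544, 421 and 431 counts, likewise above OGD (log2 fold change 0.44, SE 0.18). miR-376a had 309, 292 and 289.9 counts in the OGD+MS-275 lanes, against 273, 178 and 218 in the OGD lanes, where the gap was set by OGD replicate 1 (log2 fold change 0.40, SE 0.18). Other abundant members did not follow. miR-300 had 437 ± 29.7 counts in OGD+MS-275 and 442 ± 10.1 in OGD (SD, n = 3 each), with a 95% interval of the log2 fold change of -0.33 to 0.29. For miR-329 that interval was -0.44 to 0.38, and for miR-382 it was -0.41 to 0.49. Without OGD+MS-275 replicate 2 the median over the members was 0.41, without OGD+MS-275 replicate 3 it was 0.15, and without OGD replicate 3 it was 0.13.

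**Figure D3:**
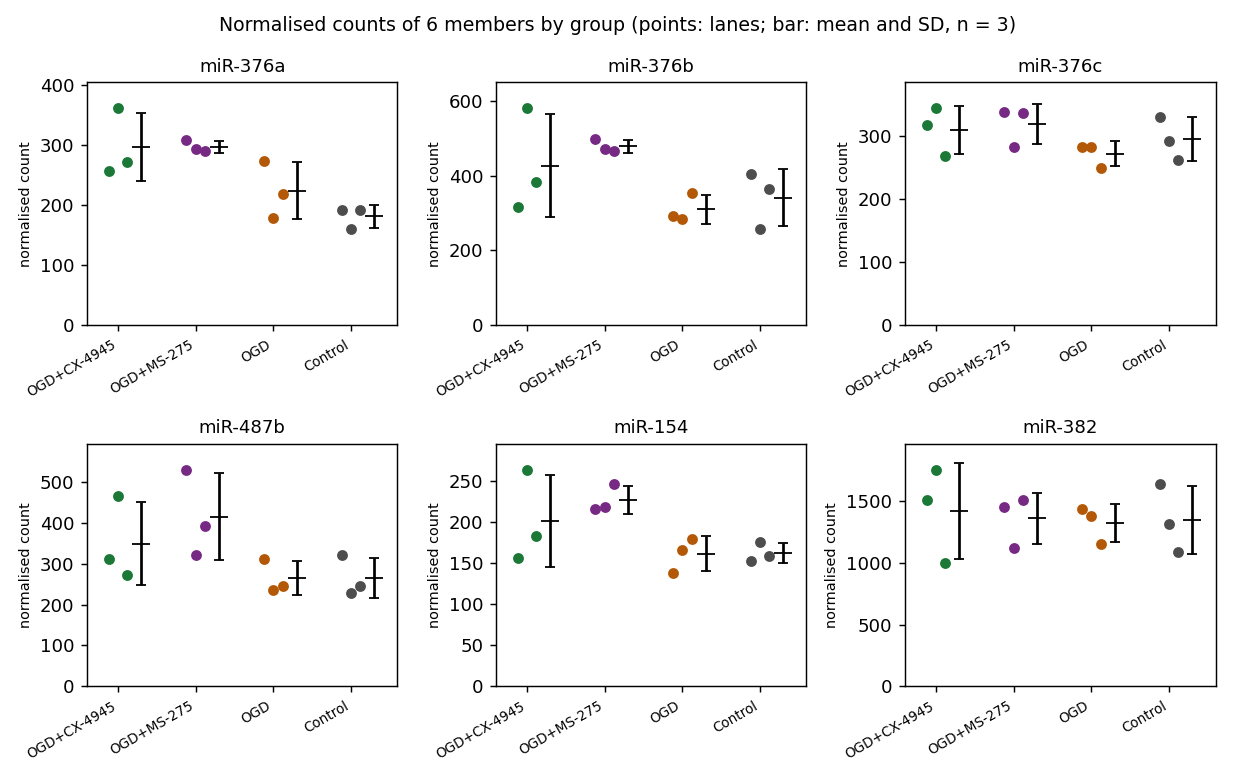
Normalised counts of miR-376a, miR-376b, miR-376c, miR-487b, miR-154 and miR-382 in each lane (points) by group, with the mean and SD of 3 lanes (black bars). The OGD+MS-275 lanes of miR-376a, miR-376b and miR-154 lie above every OGD and Control lane, while those of miR-376c and miR-382 overlap with both.

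OGD was compared with Control to see what deprivation alone changes. 15 of 22 members were lower in OGD nerves, with a median log2 fold change of -0.06 against 0.01 over all tested probes. No member passed the threshold (0.0% of all probes did), and 0 had an unadjusted p under 0.05 in either direction, against 0.461% of all probes that were higher and 5.07% that were lower. miR-495, miR-410 and miR-369-3p were lower in every OGD lane than in any Control lane, as were 9.22% of all probes. They are among the 7 members that were higher in every OGD+MS-275 lane than in OGD, and the OGD lanes are common to both comparisons.

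miR-495 had 494, 416 and 448 normalised counts in the OGD lanes, against 731, 514 and 564 in the Control lanes (log2 fold change -0.41, SE 0.23, adjusted p = 0.747, edgeR's quasi-likelihood test). miR-369-3p had 825, 718 and 837 counts in the OGD lanes, against 1096, 837 and 927 in the Control lanes. Its groups were nearly touching, at OGD replicate 3 and Control replicate 2 (log2 fold change -0.26, SE 0.15). miR-410 had 359, 285 and 385 counts in the OGD lanes, against 486, 402 and 405 in the Control lanes (log2 fold change -0.33, SE 0.18). Its mean was 343 ± 51.9 in OGD and 431 ± 47.7 in Control (SD, n = 3 each). In the other direction, miR-376a had a higher mean in OGD than in Control (log2 fold change 0.31, SE 0.18), with overlapping groups. The median depended on single lanes. Without Control replicate 1 it was 0.09, with 13 of 22 members higher in OGD. It was -0.11 without Control replicate 2 or OGD replicate 1, and -0.15 without Control replicate 3. Leaving out OGD replicate 3 gave -0.0029, and leaving out the OGD+CX-4945 lane of that number gave -0.03. Of the 22 intervals, 21 excluded a 2-fold difference in either direction, the exception being miR-409-5p (-1.18 to 0.53).

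Set against undeprived nerves, miR-376a stood out among the members in both drug groups. It had 256, 361 and 271 normalised counts in the OGD+CX-4945 lanes and 309, 292 and 289.9 in the OGD+MS-275 lanes, against 191, 159 and 192 in the Control lanes. All 6 lanes with a drug lay above all Control lanes, and the OGD lanes overlapped with the OGD+CX-4945 lanes and with Control. The log2 fold change over Control was 0.71 (SE 0.18, adjusted p = 0.14) for OGD+CX-4945 and 0.71 (SE 0.18, adjusted p = 0.0615) for OGD+MS-275 in edgeR's quasi-likelihood test with Benjamini-Hochberg adjustment. Neither passed the threshold. The call for OGD+MS-275 was close to it and passed in 11 of 27 alternatives, with adjusted p between 0.00615 and 0.955. Across the 4 groups miR-376a had the lowest p of the members for any difference (adjusted p = 0.133, edgeR's quasi-likelihood F test), and 4 members had an unadjusted p under 0.05 there, against a background of 15.2%. In that test 0.461% of all probes passed the threshold.

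In OGD+MS-275 against Control, 17 of 22 members were higher, with a median log2 fold change of 0.11 against -0.0049 over all tested probes. Without Control replicate 1 all 22 were higher with a median of 0.24, and without Control replicate 3 only 11 were, with a median of 0.01. The median was 0.04 without Control replicate 2 or OGD+MS-275 replicate 1, 0.03 without OGD+MS-275 replicate 3, and 0.22 without OGD+MS-275 replicate 2. With the title sets described below as a block, 12 were higher with a median of 0.02. 5 members had an unadjusted p under 0.05, namely miR-376a, miR-487b, miR-377, miR-154 and miR-376b, all higher, against a background of 12.4% higher and 10.6% lower. The groups of miR-154, miR-376a, miR-376b, miR-377 and miR-541 did not overlap, where 15.2% of all probes showed this. Those of miR-541 were nearly touching, at 36.6 normalised counts in OGD+MS-275 replicate 2 and 36.5 in Control replicate 1. miR-541 was above background in 1 OGD+MS-275 lane and 1 Control lane. The threshold was passed by 1.38% of all probes and by no member. miR-377, a less abundant member, had 79.4, 58.3 and 74.5 normalised counts in the OGD+MS-275 lanes, against 46.9, 34.2 and 46.1 in the Control lanes (log2 fold change 0.73, SE 0.27). It was above background in every OGD+MS-275 lane and in 2 of 3 Control lanes. In OGD+CX-4945 against Control, 20 of 22 members were higher with a median of 0.14 against 0.02 over all probes, and 1 member, miR-376a, had an unadjusted p under 0.05 (background 4.61% higher and 3.69% lower). No probe passed the threshold there (0.0%), and only miR-376a had groups without overlap, against 3.23% of all probes. That median was -0.01 without OGD+CX-4945 replicate 2, 0.30 without OGD+CX-4945 replicate 3, 0.27 without Control replicate 1, 0.07 without Control replicate 2 and 0.03 without Control replicate 3.

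The miR-376 members did not behave alike. miR-376c, whose hairpin lies just upstream of those of miR-376b and miR-376a, had 317, 344 and 268 normalised counts in the OGD+CX-4945 lanes, 339, 282 and 337 in the OGD+MS-275 lanes, 283, 283 and 249 in the OGD lanes and 331, 292 and 262 in the Control lanes. Its groups overlapped in every comparison, and its log2 fold change over Control was 0.11 (95% interval -0.22 to 0.44) for OGD+MS-275. For miR-376a that interval was 0.33 to 1.10, so the intervals of these neighbours overlap. The difference between them was not tested.

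The drugs were compared with each other from the same fit. Members had a median log2 difference of -0.01 for OGD+MS-275 over OGD+CX-4945, with 11 higher and 11 lower, and no member passed the threshold (0.0% of all probes did) or had an unadjusted p under 0.05, which 4.15% of all probes had. No member's groups were without overlap, against 5.07% of all probes with every OGD+MS-275 lane higher. The 95% intervals of all 22 members excluded a 2-fold difference in either direction. They do not exclude smaller ones: the interval was -0.37 to 0.38 for miR-376a and -0.23 to 0.73 for miR-487b, which had the largest difference among the members (0.25). When OGD+CX-4945 replicate 2 was left out, 19 members were higher with a median of 0.16, and 5 had an unadjusted p under 0.05. The share of all probes under that p in this refit is not given here, so the count cannot be set against a background. The split also followed the scaling: 22 members were higher with a median of 0.22 when scaled by the mRNA probes (all probes 0.22), and 4 with a median of -0.17 when scaled by the ligation controls (all probes -0.18). With the title sets as a block, 8 were higher, with a median of -0.12 against -0.03 over all probes.

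Most members varied together from lane to lane within the groups. With each group's mean removed, the median Pearson correlation over the 231 pairs of tested members was 0.62 across the 12 lanes, against 0.00 over all pairs of tested probes. 225 of the 231 pairs lay above 0. The closest pairs were miR-376c with miR-382 (r = 0.98), miR-376a with miR-377 (0.96) and miR-376c with miR-543 (0.96). Among the pairs most alike in sequence, r was 0.81 for miR-300 with miR-381, 0.80 for miR-495 with miR-543 and 0.68 for miR-376a with miR-376b. It was 0.26 for miR-376a with miR-376c and 0.03 for miR-369-3p with miR-369-5p, the strands of one hairpin. These correlations describe 12 lanes that share their scaling, and no test was made of them.

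**Figure D4:**
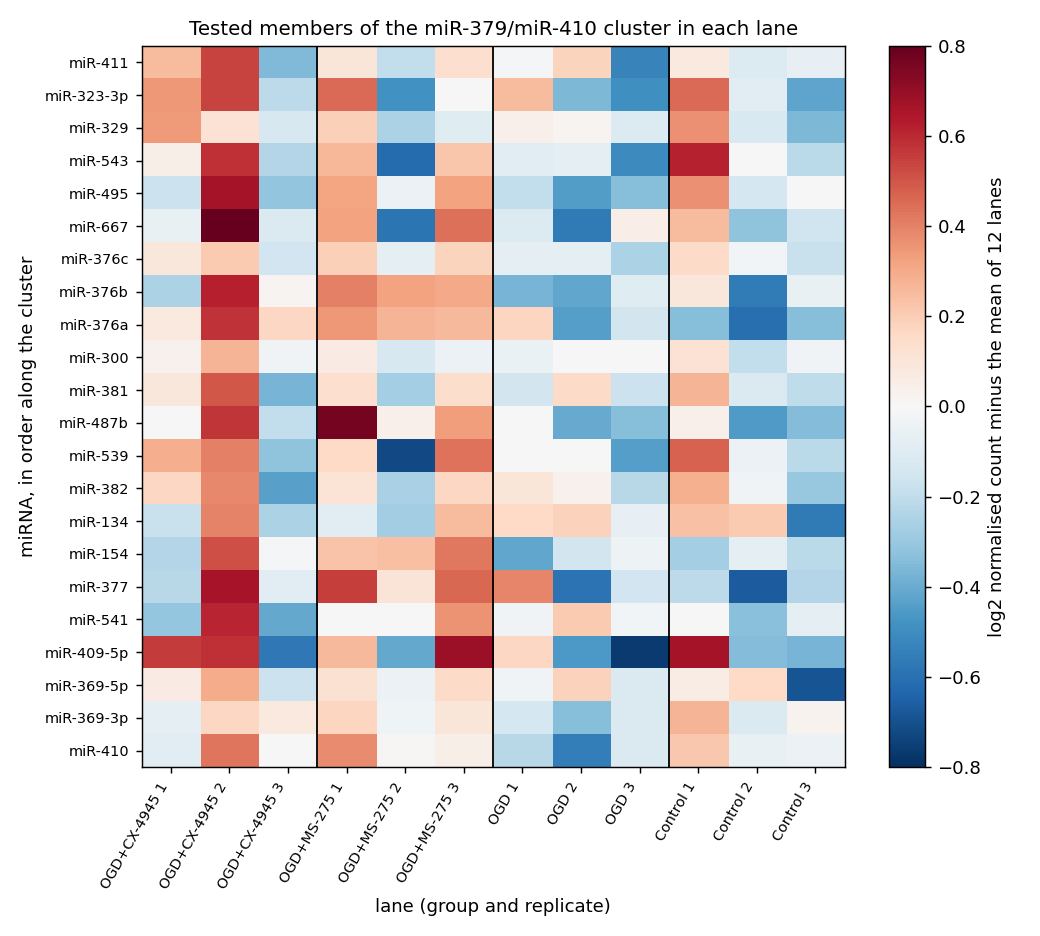
Log2 normalised count of each tested member minus its mean over the 12 lanes (colour), with members in order along the cluster and lanes by group. Some columns share a colour nearly throughout: OGD+CX-4945 replicate 2 is above the mean in all 22 members, and OGD replicate 3 and Control replicate 3 are above it in 1 member each. Others are mixed, such as OGD+CX-4945 replicate 1 with 12 members above the mean and OGD replicate 2 with 8.

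The lane median of the members, as log2 deviation from each member's mean over the 12 lanes, was 0.04, 0.53 and -0.18 in the OGD+CX-4945 lanes and 0.21, -0.10 and 0.24 in the OGD+MS-275 lanes. It was -0.03, -0.11 and -0.15 in the OGD lanes and 0.22, -0.12 and -0.21 in the Control lanes. The groups overlapped, and the SD within a group was 0.36 in OGD+CX-4945, 0.19 in OGD+MS-275, 0.06 in OGD and 0.23 in Control. OGD+CX-4945 replicate 2 held the highest count of 16 of the 22 members, and Control replicate 1 that of 4 others. All 22 members of OGD+CX-4945 replicate 2 were above their means, whereas the median over all tested probes in that lane was 0.04.

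The numbers in the sample titles fall into 3 sets, called A, B and C here, and the labels do not say what they mark. Control, OGD and OGD+CX-4945 had 1 lane in each set, while OGD+MS-275 had 2 lanes in A, 1 in B and none in C. All 3 lanes of set C had low members, with medians of -0.18 in OGD+CX-4945, -0.15 in OGD and -0.21 in Control. Within sets, the median log2 difference of the members for OGD+CX-4945 over OGD was 0.09 in A, 0.58 in B and 0.08 in C. For OGD+MS-275 over OGD it was 0.03 in A and 0.40 in B. For OGD over Control it was -0.21 in A, 0.04 in B and 0.02 in C. For single members, OGD+MS-275 over OGD gave 0.73 in A and 0.72 in B for miR-376b, 0.65 and 0.57 for miR-154, and 0.14 and 0.70 for miR-376a. OGD+MS-275 over Control gave 0.27 in A and 0.86 in B for miR-376b, 0.51 and 0.49 for miR-154, and 0.65 and 0.86 for miR-376a. Of the 3, miR-154 lay within 0.1 between the sets in both comparisons. With the sets as a block, miR-154 passed the threshold in OGD+MS-275 against OGD (log2 fold change 0.55, adjusted p = 0.0384) and against Control (adjusted p = 0.0280), and miR-376a did so against Control (adjusted p = 0.0260, edgeR's quasi-likelihood test). The median over the members in OGD+MS-275 against OGD was then 0.11. The share of all probes past the threshold with that block is not given here.

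**Figure D5:**
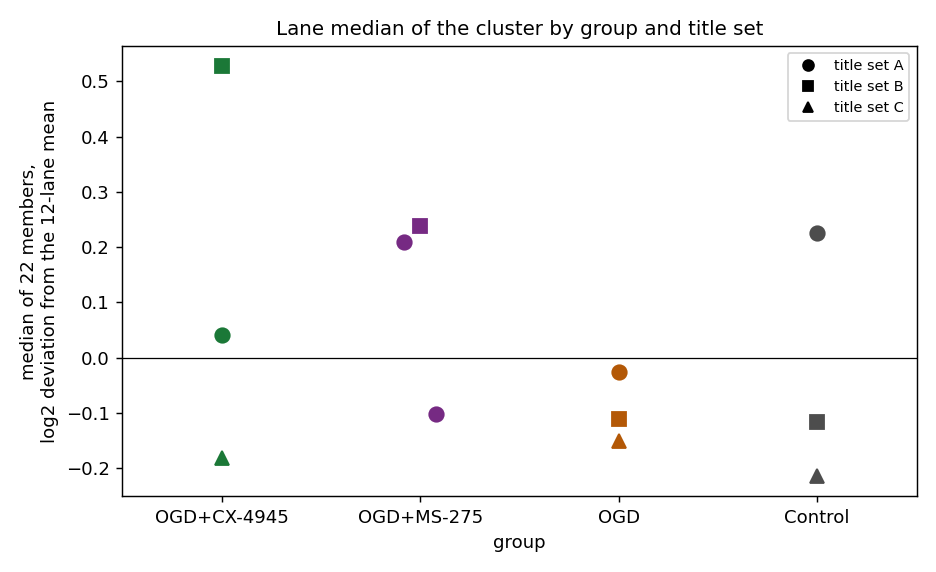
Median over the 22 tested members of the log2 deviation from the 12-lane mean, for each lane by group (colour and position) and title set (symbol). The lanes of set C lie at -0.18, -0.15 and -0.21, OGD+CX-4945 replicate 2 (set B) is highest at 0.53, and the groups overlap.

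Ligation of a tag to each miRNA precedes counting, and the panel's positive controls for that step differed between lanes. They were higher in every OGD+MS-275 lane than in any OGD or Control lane, and the other groups overlapped. Their geometric mean was 1667 to 3787 counts in OGD+CX-4945 lanes, 2914 to 3155 in OGD+MS-275 lanes, 1109 to 2423 in OGD lanes and 1386 to 2369 in Control lanes. Within groups, 25 of the 217 tested probes (11.5%) had a slope on the log2 ligation count that passed the threshold, and no member did. The median slope of the members was -0.13 per doubling, with 14 of 22 below 0, and miR-329 and miR-382 had negative slopes with unadjusted p under 0.05, as had 15.7% of all probes. Across lanes the median of the members and the log2 ligation count had r = 0.13 and rho = 0.01 (n = 12), or -0.26 and -0.21 with group means removed. Without the 2 lanes farthest from the median ligation count, r became 0.20 across lanes, or -0.50 once group means were taken out. Scaling by the ligation controls shifted all probes: in OGD+MS-275 over OGD the median of all probes was then -0.42 and that of the members -0.27, with 6 of 22 higher, and in OGD+CX-4945 over OGD these medians were -0.26 and -0.02, with 10 of 22 higher. With the log2 ligation count as a covariate in the fit, by contrast, the members' median was 0.32 in OGD+CX-4945 over OGD (22 of 22 higher), 0.36 in OGD+MS-275 over OGD (21 of 22 higher), 0.28 in OGD+CX-4945 over Control and 0.29 in OGD+MS-275 over Control, with all probes between -0.01 and 0.02. With both the title sets and the ligation count in the fit, the members' median was 0.02 for OGD+CX-4945 over OGD and -0.24 for OGD+MS-275 over OGD. No member passed the threshold with the ligation count in the fit.

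Since the cluster is best known from neurons, the levels of cell type markers were set beside it. The summed normalised count of the 4 neuronal miRNAs (miR-124, miR-128, miR-153 and miR-218), all of them tested, was 7663 to 9202 in OGD+CX-4945, 7876 to 8699 in OGD+MS-275, 7995 to 8705 in OGD and 8535 to 8789 in Control. The sum was mostly miR-124, with 5145 to 11485 raw counts per lane. The highest sum was in OGD+CX-4945 replicate 2, the lane in which all members were high, and the lowest in OGD+CX-4945 replicate 1. Not all lanes paired in this way. OGD+MS-275 replicate 1 had a member median of 0.21 and a sum of 7876, and OGD+MS-275 replicate 2 had -0.10 and 8699. Control replicate 1 had a member median of 0.22 and the lowest Control sum, 8535. The relation was not tested. The labelled tissue carried its glial miRNAs, with 26458 to 35754 summed counts of miR-219 and miR-338-3p across lanes. Of the 4 retinal miRNAs, miR-182, miR-183 and miR-96 stayed at no more than 38 raw counts, and only miR-204 was tested. Other lists differed between the groups. The vascular sum (miR-126-3p, miR-143 and miR-145) was 10787 to 13551 in OGD+CX-4945, 10923 to 11384 in OGD+MS-275, 12218 to 13987 in OGD and 12756 to 15907 in Control, so OGD+MS-275 lay below OGD and Control in every lane. The leukocyte sum (miR-142-3p, miR-150 and miR-223) was 2140 to 2724 in OGD+CX-4945, 1997 to 2381 in OGD+MS-275, 2544 to 3225 in OGD and 2537 to 3090 in Control, with the same separation of OGD+MS-275. The vascular sum was mostly miR-126-3p (7927 to 13787 raw counts per lane) and the leukocyte sum mostly miR-150 (1630 to 2523). Of the 217 tested probes, 23 had every OGD+MS-275 lane below every OGD lane, and 29 had every one below every Control lane. The erythroid sum (miR-144 and miR-451) was 725 to 1111 in OGD+CX-4945, 867 to 1099 in OGD+MS-275 and 837 to 1016 in OGD, all below the 1283 to 1401 in Control. The retinal sum, mostly miR-204, was 4695 to 5247 in OGD+CX-4945, 4277 to 4837 in OGD+MS-275, 4817 to 5954 in OGD and 5441 to 5994 in Control, lower in every lane of both drug groups than in Control. The astrocyte-associated miR-29 sum and the skeletal muscle sum (miR-1, miR-133a and miR-206) overlapped between all groups, at 8312 to 14573 and 144.6 to 217 across lanes. What part other cells have in the members' values was not tested.

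The other miRNAs of the Dlk1-Dio3 region on the panel, which lie beside the cluster, gave a further view of the domain. Of 21 such probes, 6 were tested and 13 never exceeded the limit. In OGD+CX-4945 over OGD, 4 of the 6 were higher with a median log2 fold change of 0.28. In OGD+MS-275 over OGD, 4 of 6 were higher with a median of 0.34, and in OGD over Control 4 of 6 were lower with a median of -0.09. None of the 6 passed the threshold in these comparisons.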

How the data were processed

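Small RNA of 12 isolated optic nerve samples was profiled on an nCounter miRNA panel, per the labels. The values used are the deposited raw barcode counts of each probe in each lane, per the file headers. Total miRNA counts were 254692 to 542399 per lane after leaving out 1 row with no name. A second deposited table holds processed signals, and how the authors made them is not stated. Above 20, these signals matched raw counts less the negative-control median, times 1 factor per lane, to within 0.0230%. That factor was 1.001 times the one computed from the 4 mRNA probes in every lane. They served only as an alternative.

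Groups follow the labels' agent field. Counts were tested by edgeR's quasi-likelihood method (edgeR 4.0.16 in R 4.3.3) with TMM factors and robust dispersion, in one fit of the 12 lanes with a mean per group. It ran on the 217 of 566 mouse miRNA probes above the lane's limit (mean plus 2 SD of 8 negative controls) in at least 3 lanes, with Benjamini-Hochberg adjustment over them and a threshold of 0.05. The biological coefficient of variation was 16.6%. Normalised counts are raw counts over the TMM-scaled lane total relative to its mean over lanes. Intervals are those of the fit. The code was tested on simulated counts.

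The members and marker lists were chosen with earlier results of these data known. Members chosen for closer description are the 8 with the highest mean count, the miR-376 group, and strands of one hairpin where both were tested. The 3 with the smallest p were also taken from each of OGD+CX-4945 vs OGD, OGD+MS-275 vs OGD, OGD vs Control and any difference among the groups. Lane values are printed in the text for some of the chosen members only, and the others are given by summary values. miR-377, miR-541 and miR-409-5p were added after their values were seen. Alternatives were other scalings (lane total, DESeq2 1.42.0 size factors, mRNA probes, ligation controls, positive controls), background subtraction, other detection filters, DESeq2, limma-voom (limma 3.58.1), the deposited signals on log2(value + 1), a ligation covariate, a block of title sets, fits of the compared groups alone, and each lane left out in turn. Hairpin positions and sequences are from RefSeq tables on GRCm38.p6.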

Additional observations from a re-analysis of the deposited data

How the results depend on the processing

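Alternatives to the main setting were 15 other settings and 12 fits with 1 lane left out, and positive-control scaling was chosen after seeing the data. No member passed the threshold in OGD+CX-4945 vs OGD, OGD vs Control or OGD+MS-275 vs OGD+CX-4945 under any of them, and in OGD+MS-275 vs OGD only miR-154 did, in 1 alternative (1 member, title-set block). Against Control, the count of members was 1 in OGD+CX-4945 with DESeq2 and 0 to 1 with lanes left out (1 without OGD+CX-4945 replicate 1). In OGD+MS-275 it was 1 with lane totals, with probes above the limit in all 12 lanes, with DESeq2 and with limma-voom, 2 with the title-set block and with the compared groups alone, and 0 to 1 with lanes left out (1 without any of the OGD+CX-4945 lanes, OGD replicate 2 or OGD replicate 3). Shares of all probes past the threshold under the alternatives are not given here, so these counts have no background beside them.

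Scalings that move all probes moved the members' median too. In OGD+CX-4945 vs OGD it was 0.54 with mRNA-probe scaling (all probes 0.26), 0.62 with positive controls (0.39), 0.80 with the deposited signals (0.49) and -0.024 with ligation controls (-0.26). In OGD+MS-275 vs OGD it was 0.71 (0.54), 0.63 (0.47), 1.03 (0.71) and -0.27 (-0.42) in the same order of settings. In OGD vs Control it was -0.42 with the deposited signals (-0.33). In OGD+CX-4945 vs Control it was 0.39 with positive controls (0.28), and in OGD+MS-275 vs Control 0.47 with mRNA probes (0.36), 0.44 with positive controls (0.33), 0.41 with the deposited signals (0.30) and -0.29 with ligation controls (-0.39). With title sets and the ligation count together it was 0.023 in OGD+CX-4945 vs OGD, -0.24 in OGD+MS-275 vs OGD, -0.31 in OGD+MS-275 vs Control and -0.27 in OGD+MS-275 vs OGD+CX-4945, where all probes had medians between -0.06 and 0.00. OGD+MS-275 has no lane in set C and the highest mean ligation count of the groups.

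Ligation scaling gave 10 of 22 members the other sign in OGD+CX-4945 vs OGD and 13 in OGD+MS-275 vs OGD, and the joint fit of title sets and ligation gave 8 and 17. Some members chosen for closer description turned from a value over 1 SE, and the list that follows is not complete. In OGD+CX-4945 vs OGD, ligation scaling gave -0.044 for miR-369-3p and -0.11 for miR-376c, and the joint fit gave -0.10 for miR-495, -0.0090 for miR-410, -0.014 for miR-376b, -0.075 for miR-376a and -0.10 for miR-487b. In OGD+MS-275 vs OGD, ligation scaling gave -0.18 for miR-369-3p, -0.068 for miR-376a and -0.25 for miR-376c, and the joint fit gave -0.075 for miR-369-3p, -0.41 for miR-495, -0.30 for miR-410, -0.11 for miR-376b, -0.44 for miR-376a and -0.28 for miR-487b. In OGD vs Control, the deposited signals turned 2 of the 6 members over 1 SE, and 1 of them was miR-376a at -0.010. In OGD+MS-275 vs Control, the joint fit gave -0.16 for miR-376a, -0.26 for miR-376b, -0.76 for miR-377 and -0.29 for miR-487b. The joint fit also turned 4 of the 6 members over 1 SE in OGD+CX-4945 vs Control. In OGD+MS-275 vs OGD+CX-4945 it turned the 1 member over 1 SE. Leaving out OGD+CX-4945 replicate 2 turned 1 such member in OGD+CX-4945 vs Control. The cause was not tested. The labels give no replicate numbers, and the title sets gave the only blocks. miR-409-5p, near background, had the widest interval of the members in OGD+CX-4945 vs OGD, OGD+MS-275 vs OGD and OGD vs Control.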
